A study of Mus musculus with 12 samples.

Results

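The collagen and elastic matrix genes of the dermis, 38 genes listed by their role in connective tissue, were followed in the back skin of mouse embryos that lack keratins. Of the 38 genes, 33 had a named probe on the array, and all 33 were detected (detection p under 0.05) on at least 3 of the 12 arrays, among 11163 genes tested. They comprise 8 collagens, 10 elastic fibre genes, 6 proteoglycans, 6 adhesive and matricellular genes and 3 genes listed under collagen folding and processing. Col6a3, Col12a1, Fbn1, Efemp2 and Fn1 were not analysed here because no probe carried their name. The 33 measured genes had between 8 and 12 arrays with a detected signal, with Vcan at 8 arrays, Postn at 9 and Fmod at 11.

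RNA of whole back skin came from C57BL/6 embryos at E18.5, late in gestation, on Illumina bead arrays, with 3 arrays in each of 4 groups. The groups are a knockout of the type I keratins with its own wild type (wild type I), and a knockout of the type II keratins with its own wild type (wild type II). The design compares each knockout with its respective wild type. The labels name no allele, and whether a group's 3 arrays stem from 3 different embryos is not stated, so p-values measure the spread between these arrays, which may be partly technical.

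The dermis is built by fibroblasts, which secrete collagens that assemble into fibrils, small leucine-rich proteoglycans that coat those fibrils, and elastin that is laid down on microfibrils and cross-linked by lysyl oxidases. Keratins, by contrast, are filament proteins of epithelial cells such as the keratinocytes of the epidermis. Dermal fibroblasts build their own filaments mainly from vimentin.

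The promoters of 4 members are shown as examples: Dpt, Sparc and Col6a1, which fell in both knockouts, and Tgfbi, the member that rose. The members with the largest falls are not among them. Each stretch runs from 250 bases before to 50 after the start in RefSeq's mouse annotation (GRCm38.p6). Dpt lies at chr1:164796413-164796712, plus strand, Sparc at chr11:55420031-55420330, minus strand, Col6a1 at chr10:76725995-76726294, minus strand and Tgfbi at chr13:56609336-56609635, plus strand. Capitals mark matches to 4 motifs searched on both strands: the TATA box (TATAAA), the CCAAT box (CCAAT), the GC box (GGGCGG) and the AP-1 site (TGANTCA), none of which contains another.
Dpt: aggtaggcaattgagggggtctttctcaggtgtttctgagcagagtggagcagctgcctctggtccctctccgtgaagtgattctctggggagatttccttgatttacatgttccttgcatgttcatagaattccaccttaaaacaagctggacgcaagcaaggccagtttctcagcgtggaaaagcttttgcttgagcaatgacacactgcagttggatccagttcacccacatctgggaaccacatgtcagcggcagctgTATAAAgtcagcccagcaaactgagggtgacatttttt
Sparc: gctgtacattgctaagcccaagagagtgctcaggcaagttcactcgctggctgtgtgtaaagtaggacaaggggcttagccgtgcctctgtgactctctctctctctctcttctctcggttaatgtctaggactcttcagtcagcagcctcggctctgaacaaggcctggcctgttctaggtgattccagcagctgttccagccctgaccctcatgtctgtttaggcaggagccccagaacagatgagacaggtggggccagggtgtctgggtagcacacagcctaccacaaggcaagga
Col6a1: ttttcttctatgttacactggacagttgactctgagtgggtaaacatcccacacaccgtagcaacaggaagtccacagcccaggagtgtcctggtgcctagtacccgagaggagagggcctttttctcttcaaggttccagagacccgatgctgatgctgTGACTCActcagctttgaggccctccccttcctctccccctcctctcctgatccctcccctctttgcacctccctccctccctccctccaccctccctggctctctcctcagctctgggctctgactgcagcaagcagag
Tgfbi: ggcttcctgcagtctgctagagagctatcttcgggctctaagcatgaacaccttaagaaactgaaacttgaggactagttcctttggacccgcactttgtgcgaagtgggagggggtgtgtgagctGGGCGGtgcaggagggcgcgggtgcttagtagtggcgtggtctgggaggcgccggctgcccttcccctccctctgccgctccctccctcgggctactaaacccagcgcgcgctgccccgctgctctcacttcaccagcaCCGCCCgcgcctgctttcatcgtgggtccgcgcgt
The Dpt window held 1 match to the TATA box, the Col6a1 window 1 to the AP-1 site, the Tgfbi window 2 to the GC box and the Sparc window 0 matches. The Dpt match and 1 of the 2 Tgfbi matches (CCGCCC) lie in the 50 bases after the start. RefSeq windows matched 22 of the 33 measured members, in 26 windows. The GC box was in 46.2% of the members' windows and 35.7% of all 32851 mouse windows, the TATA box in 19.2% and 13.6%, the CCAAT box in 30.8% and 37.4%, and the AP-1 site in 7.69% and 7.81%. These shares describe the letters of the windows and were not tested.

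Signals were background-corrected, raised by 16, quantile normalized and turned to log2 values, so that a fold change is on that scale and understates the change of dim genes. A gene is said to have risen or fallen where limma's adjusted p over all genes tested was under 0.05. Between 13272 and 13693 of 25697 probes were detected on each array, and arrays of 1 group correlated at 0.962 to 0.991. The targeted genes followed the labels: Krt14 was detected on 0 of 3 type I knockout arrays and Krt10 on 1 of 3, and Krt5 and Krt1 were each detected on 0 of 3 type II knockout arrays. Over all genes the type I knockout had 15.6% lower and 12.2% higher, and the type II knockout 21.8% lower and 15.6% higher. Falls made up 58.3% of the type II calls over all genes, and 69.6% with median scaling in place of quantile normalization.

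Most matrix genes were lower in skin without either keratin type. In the type I knockout 21 of 33 fell and 0 rose, against 15.6% of all genes falling and 12.2% rising, and 31 of 33 log2 fold changes were negative. Their median was -0.54, against -0.11 over all genes tested. In the type II knockout 21 of 33 fell and 1 rose, against 21.8% and 15.6% of all genes, and 30 of 33 changes were negative with a median of -0.66, against -0.08. All 3 knockout arrays lay below all 3 wild-type arrays for 24 members in the type I series, against 28.5% of all genes, and for 23 in the type II series, against 29.3%. Between them, 16 members (48.5%) fell in both knockouts, against 10.2% of all genes, 5 fell in the type I knockout alone by these calls, 5 in the type II knockout alone, and 6 passed the test in neither. In bulk skin, fewer cells of a type and less RNA per cell cannot be told apart.

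**Figure D1:**
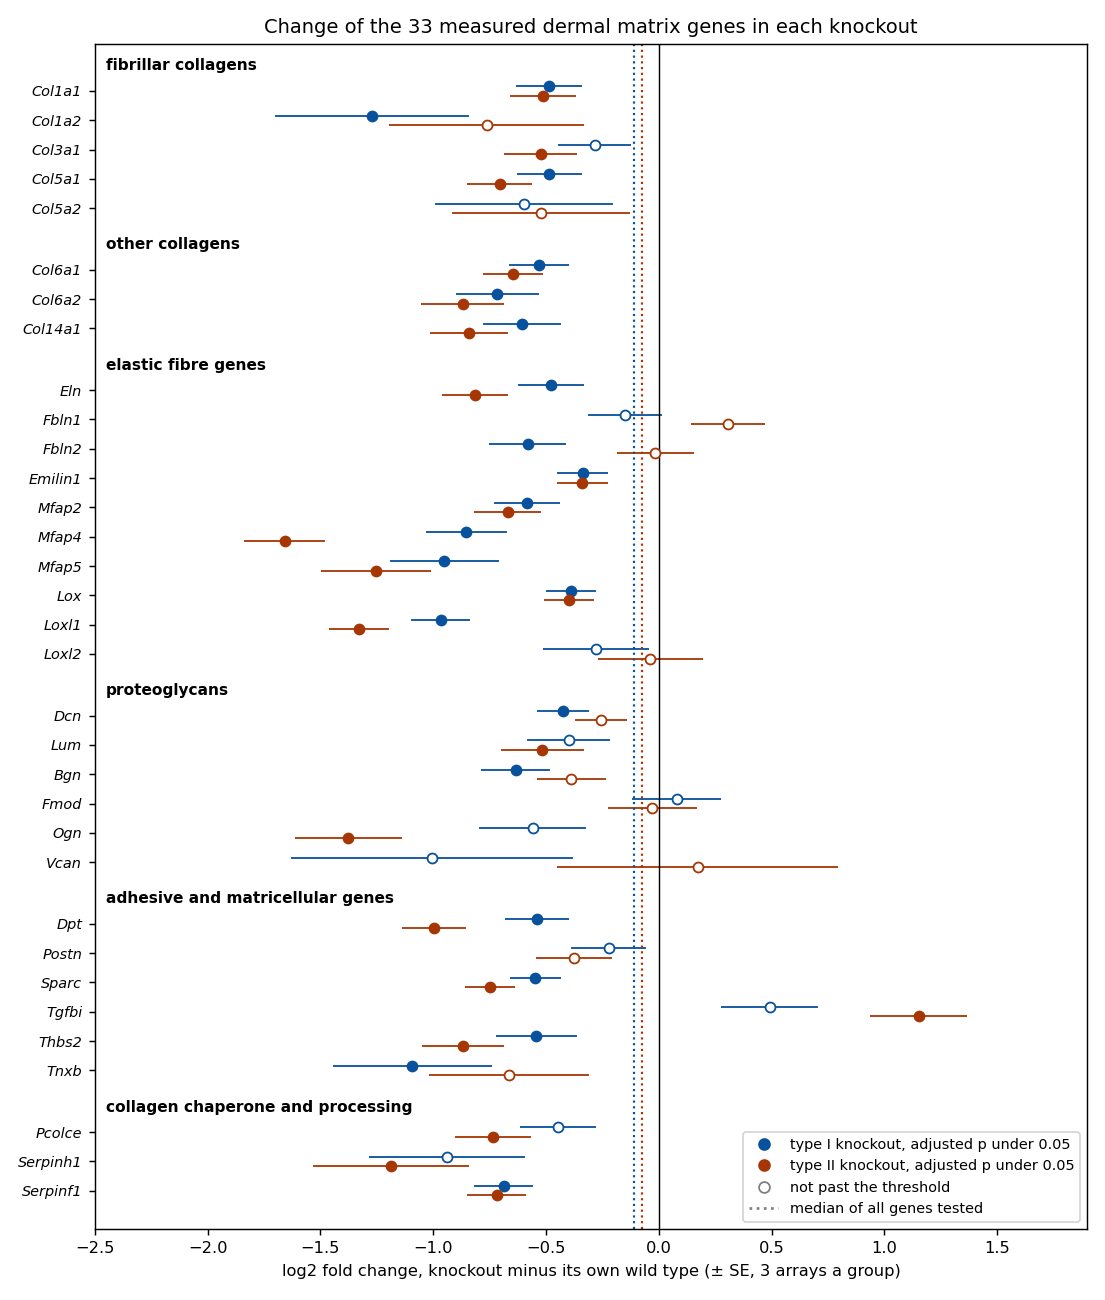
Log2 fold change (x axis, knockout minus its own wild type, with bars for 1 standard error, 3 arrays a group) of the 33 measured matrix genes, grouped by role, in the type I knockout (blue) and the type II knockout (brown). Filled points passed the adjusted p of 0.05, and dotted lines mark the median of all genes tested (-0.11 and -0.08). Tgfbi is the only filled point to the right of 0.

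The count of falls depended on single arrays, more so in the type I series. It ranged from 10 to 23 in the type I knockout and from 16 to 22 in the type II knockout when each of the 12 arrays was left out in turn. It was 11, 13 and 10 in the type I knockout without that knockout's replicates 1, 2 and 3, 14 without replicate 1 or replicate 3 of its wild type, and 13 with median scaling. The calls of 7 of the 21 type I falls (Col6a1, Mfap2, Mfap4, Loxl1, Bgn, Sparc and Serpinf1) and of 16 of the 22 type II changes passed without any single array.

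Among the fibrillar collagens, 3 of 5 fell in each knockout, against 15.6% and 21.8% of all genes. Col1a1, a chain of type I collagen, had log2 signals of 13.69, 13.63 and 13.76 in wild type I and of 13.15, 13.23 and 13.23 in the type I knockout. For the type II pair it had 13.44, 13.53 and 13.50 in wild type and 13.25, 12.64 and 13.05 in the knockout. The groups did not overlap in either series, and the knockout held 71.3% and 70.0% of the wild-type signal. The log2 changes were -0.49 ± 0.14 (SE, n = 3 a group, limma adjusted p = 0.0267) and -0.51 ± 0.14 (0.0153). The type I call was lost without any 1 of that series' 6 arrays (adjusted p up to 0.0834), and the type II call without wild type II replicate 2 (0.0513).

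Col5a1, a chain of the collagen that seeds fibrils, had 13.22, 13.37 and 13.21 in wild type I and 12.80, 12.98 and 12.56 in the type I knockout. Its type II series values were 13.25, 13.32 and 13.21 in wild type and 12.74, 12.30 and 12.63 in the knockout. The knockout arrays were below all wild-type arrays in both series, with changes of -0.49 ± 0.14 and -0.70 ± 0.14 (adjusted p = 0.0264 and 0.00269). The smaller, type I change lost its call without wild type I replicate 2 or type I knockout replicates 1 or 3 (adjusted p up to 0.0979).

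The remaining fibrillar chains were less even between arrays. Col1a2, the partner chain of Col1a1, had 11.68, 10 and 9.90 in wild type I, where replicate 1 stood well above the other 2 arrays, and 9.48, 9.49 and 8.79 in the type I knockout. Its change of -1.27 ± 0.43 passed the test (adjusted p = 0.046), and was -0.69 without wild type I replicate 1, where it did not pass (adjusted p = 0.14). It also missed the test without any 1 of the 3 type I knockout arrays (adjusted p up to 0.148), and without wild type II replicates 1 or 3 or type II knockout replicate 1 (0.0549, 0.0579 and 0.0561). Its type II series values were 11.84, 10.86 and 11.71 against 10.81, 10.28 and 11.03, which overlap, and its change of -0.76 ± 0.43 did not pass (0.187). Col3a1, the type III collagen of young skin, passed the test in the type II knockout, with 13.11, 13 and 12.95 in wild type and 12.52, 12.46 and 12.52 in the knockout. That change was -0.52 ± 0.16 (adjusted p = 0.0243, and up to 0.0806 without wild type II replicates 1 or 2 or type II knockout replicate 2), and the type I change was -0.28 ± 0.16 with overlapping arrays. Col5a2 changed by -0.60 ± 0.39 and -0.52 ± 0.39, and passed in neither.

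All 3 measured collagens outside the fibrillar group fell in both knockouts. Col6a2, a chain of the type VI collagen of beaded filaments, had 11.28, 10.95 and 11.40 in wild type I and 10.35, 10.51 and 10.63 in the type I knockout. The type II series gave 11.04, 11.31 and 11.24 against 10.45, 9.92 and 10.60. Every knockout array was below every wild-type array of its series. The changes were -0.72 ± 0.18 (adjusted p = 0.0139, and 0.0561 without type I knockout replicate 1) and -0.87 ± 0.18 (0.00327). Col6a1, its partner chain and its neighbour on chromosome 10 with 0 protein-coding genes between them, had 13.49, 13.38 and 13.54 against 12.97, 13 and 12.84 in the type I series. The type II series gave 13.63, 13.73 and 13.49 against 13.13, 12.73 and 13.06, again without overlap. It changed by -0.53 ± 0.13 and -0.65 ± 0.13 (adjusted p = 0.0117 and 0.00266), a call that held without any single array in both comparisons.

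Col14a1, a collagen that binds along the surface of fibrils, had 8.37, 8.35 and 9.04 in wild type I and 8.14, 7.88 and 7.92 in the type I knockout. For the type II pair it had 8.44, 8.57 and 8.41 against 7.71, 7.57 and 7.61. The groups were apart in both series, more widely in the type II series, and the changes were -0.61 ± 0.17 and -0.84 ± 0.17 (adjusted p = 0.0223 and 0.00273). The type I call was lost without type I knockout replicates 2 or 3 (adjusted p up to 0.0747). Over the 8 collagens together, 6 fell in each knockout, against 15.6% and 21.8% of all genes, with medians of -0.56 and -0.68.

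Elastic fibre genes fell in both knockouts, and 1 of them, Mfap4, had the largest fall of the 33 members in the type II knockout. In the type I knockout 8 of 10 fell and in the type II knockout 7 of 10, both with a median of -0.53. The shares of all genes were 15.6% and 21.8%. Loxl1, an oxidase that cross-links elastin, had 11.83, 11.72 and 11.95 in wild type I and 10.88, 10.88 and 10.84 in the type I knockout. Its type II series values were 11.92, 11.93 and 11.89 in wild type and 10.64, 10.31 and 10.80 in the knockout. The 6 wild-type arrays lay close together and all 6 knockout arrays lay well below them, at 51.1% and 39.8% of the wild-type signal. The changes were -0.97 ± 0.13 and -1.33 ± 0.13 (adjusted p = 0.000336 and 2.39e-05).

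Mfap4, a microfibril-associated protein that binds elastin and collagen, had 10.56, 10.14 and 10.66 in wild type I and 9.49, 9.64 and 9.66 in the type I knockout. In the type II series it had 11.08, 11.44 and 10.86 against 9.35, 9.37 and 9.69. Wild type II stood above wild type I, the knockouts reached like levels, and no knockout array reached a wild-type array. The changes were -0.85 ± 0.18 and -1.66 ± 0.18 (adjusted p = 0.00501 and 4.2e-05), the latter leaving 31.7% of the signal. Mfap5, another microfibril component, had 10.06, 10.34 and 10.52 against 9.13, 9.49 and 9.45 in the type I series. The type II series gave 10.03, 9.87 and 9.83 against 8.83, 8 and 9.13, with type II knockout replicate 2 the lowest. The groups did not overlap, and the changes were -0.95 ± 0.24 and -1.25 ± 0.24 (adjusted p = 0.013 and 0.00188). The type I call of Mfap5 was lost without type I knockout replicate 1 (adjusted p = 0.0542).

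Eln, elastin itself, had 10.95, 10.55 and 10.99 in wild type I and 10.45, 10.45 and 10.15 in the type I knockout, with the lowest wild-type array only just above the knockout. For the type II pair it had 11.46, 11.34 and 11.24 against 10.52, 10.45 and 10.63, which are far apart. The changes were -0.48 ± 0.15 (adjusted p = 0.03) and -0.81 ± 0.15 (0.00122), and the type I call was lost without wild type I replicates 1 or 3 or any 1 of the 3 knockout arrays (adjusted p up to 0.107). Smaller falls in both knockouts were found for Mfap2, a microfibril component (-0.58 and -0.67), for Lox, the founding lysyl oxidase (-0.39 and -0.40), and for Emilin1, an elastin-associated glycoprotein (-0.34 in each). The Lox calls were lost without 4 of the 12 arrays in turn in the type I comparison (adjusted p up to 0.0666) and without wild type II replicate 3 in the type II comparison (0.0563), and the Emilin1 calls were lost without 9 of the 12 arrays in turn for the type I change and 5 for the type II change (up to 0.143 and 0.108). Fbln2, a fibulin, fell in the type I knockout (-0.58 ± 0.17, adjusted p = 0.0257, and up to 0.0844 without wild type I replicate 1 or any 1 of the type I knockout arrays) and changed by -0.02 ± 0.17 in the type II knockout. Loxl2 (-0.28 and -0.04) and Fbln1 (-0.15 and 0.31), another fibulin, passed in neither, though Fbln1 passed in the type II knockout without its replicate 3 (0.50, adjusted p = 0.0137).

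**Figure D2:**
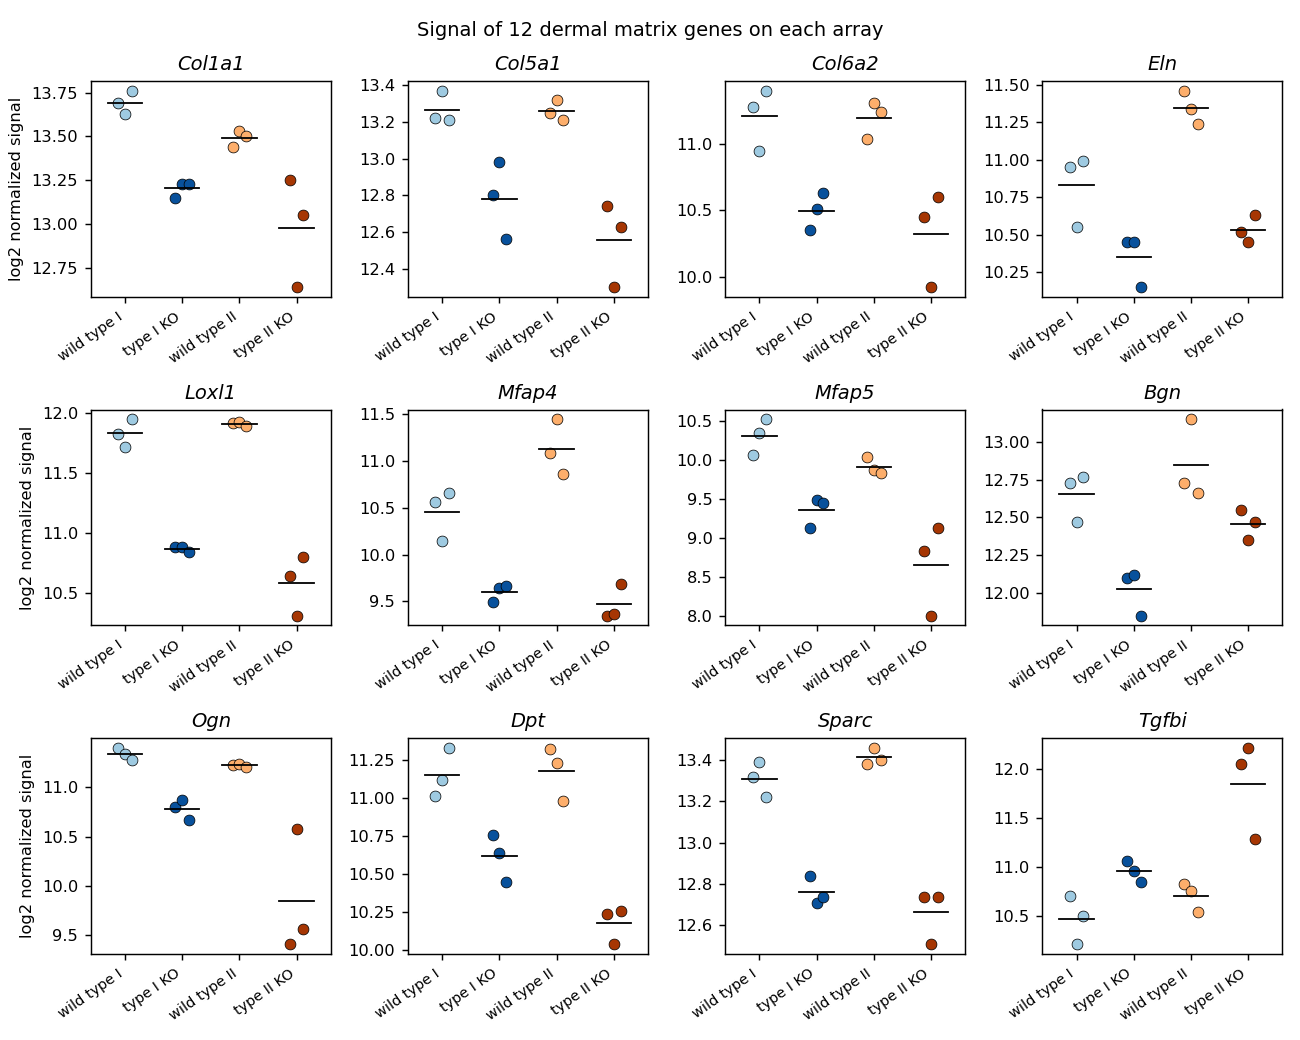
Log2 normalized signal (y axis, own scale in each panel) of 12 matrix genes on each of the 12 arrays, with a dot per array and a bar at the mean of the 3 arrays of a group. Knockout arrays of Loxl1 and Sparc lie below every wild-type array of both series, and Tgfbi runs the other way, with type II knockout arrays between 11.29 and 12.22.

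Of the 6 proteoglycans 2 (33.3%) fell in each knockout, against 15.6% and 21.8% of all genes. They were Bgn and Dcn in the type I and Ogn and Lum in the type II knockout. The type II share was not far from that of all genes, and the median there was -0.32. Bgn, biglycan, had 12.73, 12.47 and 12.77 in wild type I and 12.10, 12.12 and 11.85 in the type I knockout, and fell by 0.63 ± 0.15 (adjusted p = 0.0103). Its type II series values were 12.73, 13.15 and 12.66 against 12.55, 12.35 and 12.47, without overlap but short of the test (-0.39 ± 0.15, adjusted p = 0.0649). Dcn, decorin, had 13.64, 13.67 and 13.71 against 13.28, 13.34 and 13.12 in the type I series and 13.40, 13.51 and 13.43 against 13.28, 13.03 and 13.26 in the type II series. Its arrays were apart in both series, with changes of -0.42 ± 0.12 (adjusted p = 0.018, and 0.0649 without type I knockout replicate 3) and -0.26 ± 0.12 (0.102).

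Ogn, osteoglycin, had 11.40, 11.34 and 11.28 in wild type I and 10.80, 10.87 and 10.67 in the type I knockout. In the type II series it had 11.23, 11.24 and 11.21 in wild type and 9.41, 10.58 and 9.56 in the knockout. The wild-type arrays were tight, and type II knockout replicate 2 stood well above the other 2 knockout arrays while below all wild-type arrays. The changes were -0.56 ± 0.24 (adjusted p = 0.0984) and -1.38 ± 0.24 (0.000966), and without type II knockout replicate 2, whose spread enters the shared error, the type I change passed as well (0.0026). Lum, lumican, next to Dcn on chromosome 10, fell in the type II knockout, with 12.20, 12.30 and 12.10 against 11.66, 11.46 and 11.92 (-0.52 ± 0.18, adjusted p = 0.0432). That call was lost without 8 of the 12 arrays in turn (adjusted p up to 0.137). Fmod changed by 0.08 and -0.03. Vcan, versican, had 5.34, 5.79 and 8.36 in wild type I and 5.25, 4.98 and 6.26 in the type I knockout. Replicate 3 was the high array of both groups, and these arrays share the number that opens their titles, whose meaning the labels do not give. Vcan passed in neither comparison, with a type I change of -1.004, which did pass with the title number as a block (adjusted p = 0.0424).

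Of the adhesive and matricellular genes, 4 of 6 fell in the type I knockout, and 3 of 6 fell and 1 rose in the type II knockout. Of all genes 15.6% and 21.8% fell. Dpt, dermatopontin, which links decorin and collagen fibrils and whose promoter is printed above, had 11.01, 11.12 and 11.33 in wild type I and 10.76, 10.64 and 10.45 in the type I knockout. The type II series gave 11.32, 11.23 and 10.98 against 10.24, 10.04 and 10.26. Knockout arrays were below wild-type arrays in both series, by a wider gap in the type II series. The changes were -0.54 ± 0.14 (adjusted p = 0.015) and -0.995 ± 0.142 (0.000278). The type I call was lost without wild type I replicate 3 or type I knockout replicate 3 (0.0507 and 0.0577).

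Sparc, a collagen-binding matricellular protein, had 13.32, 13.39 and 13.22 in wild type I and 12.84, 12.71 and 12.74 in the type I knockout. For the type II pair it had 13.38, 13.46 and 13.40 against 12.74, 12.51 and 12.74. The 2 wild types and the 2 knockouts each sat within a narrow band, and the type II change was -0.75 ± 0.11 (adjusted p = 0.000385). Thbs2, a thrombospondin that affects collagen fibril form, had 11.30, 11.16 and 11.61 against 10.70, 11.03 and 10.71 in the type I series and 11.12, 11.26 and 11.10 against 10.68, 10.05 and 10.14 in the type II series. It changed by -0.54 ± 0.18 and -0.87 ± 0.18 (adjusted p = 0.0428 and 0.00302), without overlap, and the type I call was lost without 7 of the 12 arrays in turn (up to 0.138). Tnxb, tenascin X, had 9.87, 9.88 and 11.17 in wild type I and 8.91, 8.98 and 9.76 in the type I knockout, with replicate 3 the high array of both groups, as for Vcan. It changed by -1.09 ± 0.35 (adjusted p = 0.0379), and by -0.66 without wild type I replicate 3, where it did not pass (0.127). It also missed the test without type I knockout replicates 1 or 2 or wild type II replicate 1 (adjusted p of 0.125, 0.114 and 0.051). Its type II change of -0.66 ± 0.35 did not pass (0.162), but did with the title number as a block (0.0329).

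Tgfbi, an adhesion protein whose gene was found as induced by TGF-beta, was the only member that rose. It had 10.70, 10.21 and 10.50 in wild type I and 11.06, 10.96 and 10.85 in the type I knockout. Its type II series values were 10.82, 10.75 and 10.54 in wild type and 12.05, 12.22 and 11.29 in the knockout. Knockout arrays were above all wild-type arrays in both series, with type II knockout replicate 3 nearest to its wild type. The rise was 2.22-fold in the type II knockout (1.15 ± 0.22, adjusted p = 0.00162). In the type I knockout the change was 0.49 ± 0.22 (0.11), which passed without type II knockout replicate 3 (0.0263). Postn, periostin, was detected on all 3 arrays of wild type II and on 0 of 3 type II knockout arrays. With the knockout arrays raised to the lowest detected signal, the wild-type mean was 1.13-fold higher, a value that carries no error. The change did not pass the test (limma adjusted p = 0.101), but did without type I knockout replicate 3 (0.0361).

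Of the 3 genes listed under collagen folding and processing, 1 fell in the type I knockout and 3 in the type II knockout, against 15.6% and 21.8% of all genes. The type I fall was that of Serpinf1, listed here as a collagen-binding gene. Serpinh1 and Pcolce, the chaperone and the processing gene, did not pass in the type I knockout. Serpinf1, pigment epithelium-derived factor, a collagen-binding serpin, had 12.24, 12.19 and 12.43 against 11.67, 11.72 and 11.41 in the type I series and 12.16, 12.26 and 12.29 against 11.68, 11.40 and 11.48 in the type II series. The groups were clearly apart, with changes of -0.69 ± 0.13 and -0.72 ± 0.13 (adjusted p = 0.00278 and 0.00126). Serpinh1, the collagen chaperone HSP47, had 10.78, 10.52 and 11.24 against 9.77, 10.23 and 9.73 in the type I series. In the type II series it had 9.40, 10.52 and 10.96 in wild type and 8.71, 9.20 and 9.41 in the knockout. Wild type II replicate 1 was as low as the highest knockout array, so that these groups overlap. The changes were -0.94 ± 0.35 (adjusted p = 0.0615) and -1.19 ± 0.35 (0.0181). The type II call was lost without wild type II replicates 2 or 3 or type II knockout replicate 1 (up to 0.0776), and the type I change passed without wild type II replicates 1 or 3 (0.0169 and 0.0416) and with the title number as a block (0.014). Pcolce, which enhances the removal of procollagen's C-terminal part, had 9.63, 9.78 and 10.06 against 9.28, 8.83 and 9.16 in the type II series and changed by -0.45 ± 0.17 (0.0688, and 0.0462 without type II knockout replicate 2) and -0.73 ± 0.17 (0.00541).

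The fall was not shown to differ between the knockouts for any member. The test of the type II change minus the type I change called 0 of 33, against 3.06% of all genes. At an unadjusted p under 0.05 it had 4 members. Mfap4 (-0.80, adjusted p = 0.127), Ogn (-0.82, 0.248) and Dpt (-0.45, 0.28) had the larger fall in the type II knockout. Fbln2 (0.57, 0.266) had the larger fall in the type I knockout. For most others the 95% interval of the difference left room for a sizeable one, as for Eln (from -0.79 to 0.12), and it was narrowest for genes such as Lox (from -0.35 to 0.33) and Sparc (from -0.55 to 0.14). The 2 wild types differed for 0 of 33 members, against 1.53% of all genes, and for 7 at an unadjusted p under 0.05. Among these were Mfap4, Eln and Fbln2. Mfap4 and Eln stood 0.68 and 0.51 higher in wild type II, so that their larger falls there were measured from a higher start. For Fbln2, wild type II minus wild type I was -0.48, so that its larger fall in the type I series was also measured from a higher start. With array weights 2 members passed the test of the difference, and without type II knockout replicate 2 or type II knockout replicate 3 1 member passed it.

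Of the 33 members 10 had several detected probes, and none of these had probes called in opposite directions. In the type I knockout 0 of these 10 were called on all their probes, 7 on some and 3 on none, and in the type II knockout 2, 5 and 3. The 3 probes of Ogn changed by -1.38, -1.15 and -1.15 in the type II knockout, and the 2 of Tgfbi by 1.15 and 1.48 there. Those of Tnxb in the type I knockout changed by -1.09, -0.92 and -0.85. The dimmer probe of Sparc, still bright at a mean log2 signal of 11.09, disagreed in the type II knockout (0.11 ± 0.27, against -0.75). That of Col3a1 changed by -0.03 ± 0.24, against -0.52, but had a mean of 5.80 against 12.88, and changes of dim probes are understated. The third probe of Col6a1, called in neither knockout, had a mean of 4.82 and was detected on 3 arrays. Fbln1 had 1 dimmer probe that rose by 0.98 ± 0.18 (adjusted p = 0.00134) where its brightest changed by 0.31. Col1a1, Col6a1, Dcn, Sparc, Col5a1, Col3a1 and Bgn were among the 100 brightest probes on at least 1 array, where bead signals can be compressed, and the files carry no saturation flag.

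**Figure D3:**
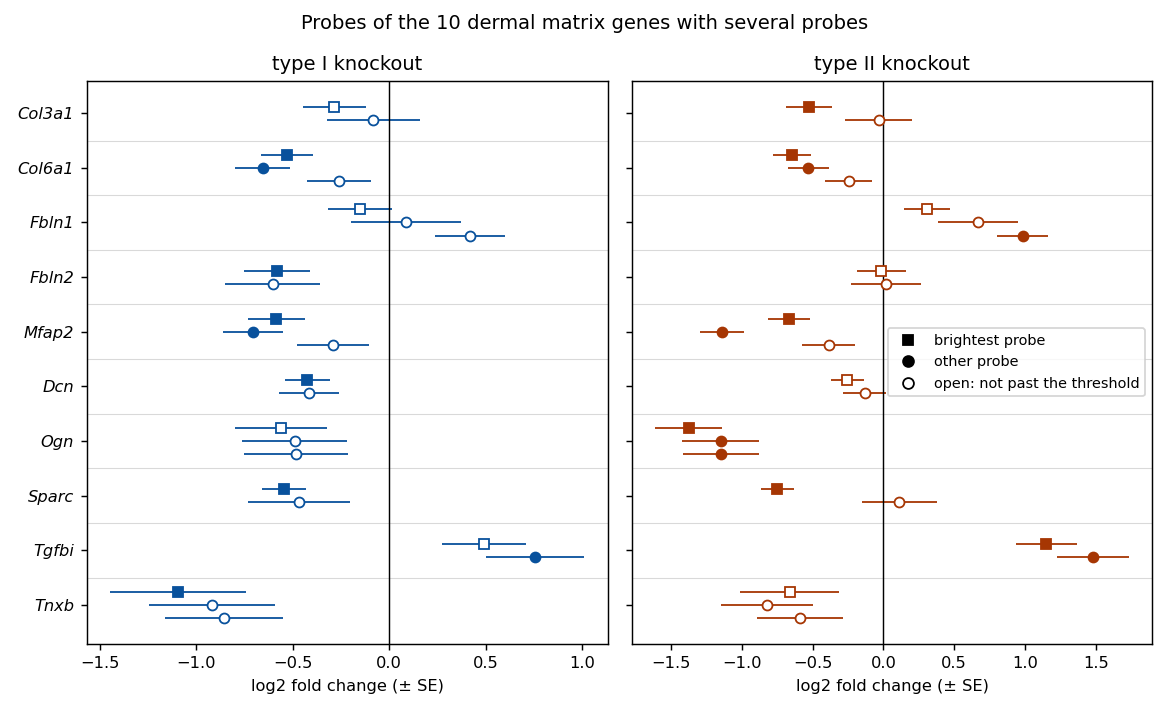
Log2 fold change (x axis, with bars for 1 standard error) of each detected probe of the 10 matrix genes with several probes, in the type I knockout (left) and the type II knockout (right). Squares mark the brightest probe, which stands for the gene elsewhere, and filled symbols passed the adjusted p of 0.05. Ogn's 3 probes lie together at -1.38 to -1.15 on the right, while Sparc's 2 probes part at -0.75 and 0.11.

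Genes that act on the matrix but are not among the 38 moved in part with them. Of 16 measured collagen modifying enzymes, 10 (62.5%) fell and 1 rose in the type I knockout, against 15.6% and 12.2% of all genes. In the type II knockout 5 (31.25%) fell and 3 rose, which is nearer to the 21.8% and 15.6% of all genes. The prolyl 3-hydroxylase P3h1 fell by 0.88 ± 0.14 in each (adjusted p = 0.00105 and 0.00064), Fkbp14, a prolyl isomerase, by 0.83 and 1.11, and Bmp1, the procollagen C-proteinase, by 0.80 and 0.66. P3h2 rose in both, by 0.90 ± 0.11 and 1.07 ± 0.11 (0.000173 and 3.57e-05). Of 28 measured other interstitial matrix genes, 13 (46.4%) fell in each knockout, 0 rose in the type I and 3 in the type II knockout. Col15a1 changed by -1.08 and -1.36, Spon2 by -1.02 and -1.39, and Col23a1 by -1.01 and -0.75. Of 18 TGF-beta signalling genes, 2 fell and 0 rose in the type I knockout, while 5 rose and 1 fell in the type II knockout. Falls were no more frequent than over all genes, of which 12.2% and 15.6% rose. Tgfb3, a ligand, fell in both (-0.59 and -0.60), and Ccn2 and Ccn1, matricellular genes that TGF-beta can induce, changed by -0.24 and -0.12 in the type I knockout and rose by 1.28 and 1.57 in the type II knockout. The difference between the knockouts was not called for these 18 genes (0 of 18, with 6 at an unadjusted p under 0.05).

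Markers of fibroblasts, adipocytes and skeletal muscle also fell, to different extents. Of 20 fibroblast markers outside the matrix, 10 fell and 1 rose in the type I knockout, against 15.6% of all genes falling, with a median of -0.56, close to the members' -0.54. Without type II keratins 5 fell and 2 rose, a share of falls (25.0%) near the 21.8% of all genes, with a median of -0.28, against the members' -0.66. Pdgfra changed by -0.46 and -0.23, Twist2 by -0.66 and -0.34, and Dpp4 by 1.08 and 0.49. Pdpn, which keratinocytes can also express, rose in the type II knockout by 1.43 ± 0.18. Adipocyte markers fell in 5 of 6 and 4 of 6 cases (medians -1.31 and -1.43), and 1 rose in the type I knockout (0.68). Skeletal muscle markers fell in 4 of 10 and 9 of 10 (-0.75 and -1.40). Of 10 keratinocyte markers outside the keratins, 8 and 9 rose and 0 fell (medians 1.48 and 1.52), against 12.2% and 15.6% of all genes rising. In the other lists, against 15.6% and 21.8% of all genes falling, endothelial markers fell in 1 of 8 and 0 of 8 cases. Their changes were negative for 8 of 8 in the type I knockout, against 61.0% of all genes, with a median of -0.34 against -0.11. In the type II knockout 4 of 8 were negative, with a median of 0.06. Smooth muscle and pericyte markers fell in 2 of 8 and 1 of 8, and 1 rose in the type II knockout. Cartilage, tendon and bone markers fell in 1 of 6 and 2 of 6, and 2 rose in the type II knockout. Macrophage markers fell in 0 of 6 in the type I knockout and in 3 of 6 in the type II knockout. In the latter all 6 changes were negative, with a median of -0.57. The part of a shifted mix of cells in the matrix result was not tested.

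The summed linear signal of the 33 members ran from 117900 to 126327 in wild type I and 78853 to 91693 in the type I knockout, and from 117976 to 125235 in wild type II and 76048 to 90727 in the type II knockout. The sum of the 20 fibroblast markers ran from 31265 to 34813 and 22826 to 24608 in the type I series, and from 27999 to 29364 and 20948 to 26130 in the type II series. That of the 10 keratinocyte markers ran from 7915 to 10655 and 17509 to 18213, and from 9533 to 11384 and 24386 to 26188. In each of the 3 sums the knockout arrays were apart from the wild-type arrays of their series.

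**Figure D4:**
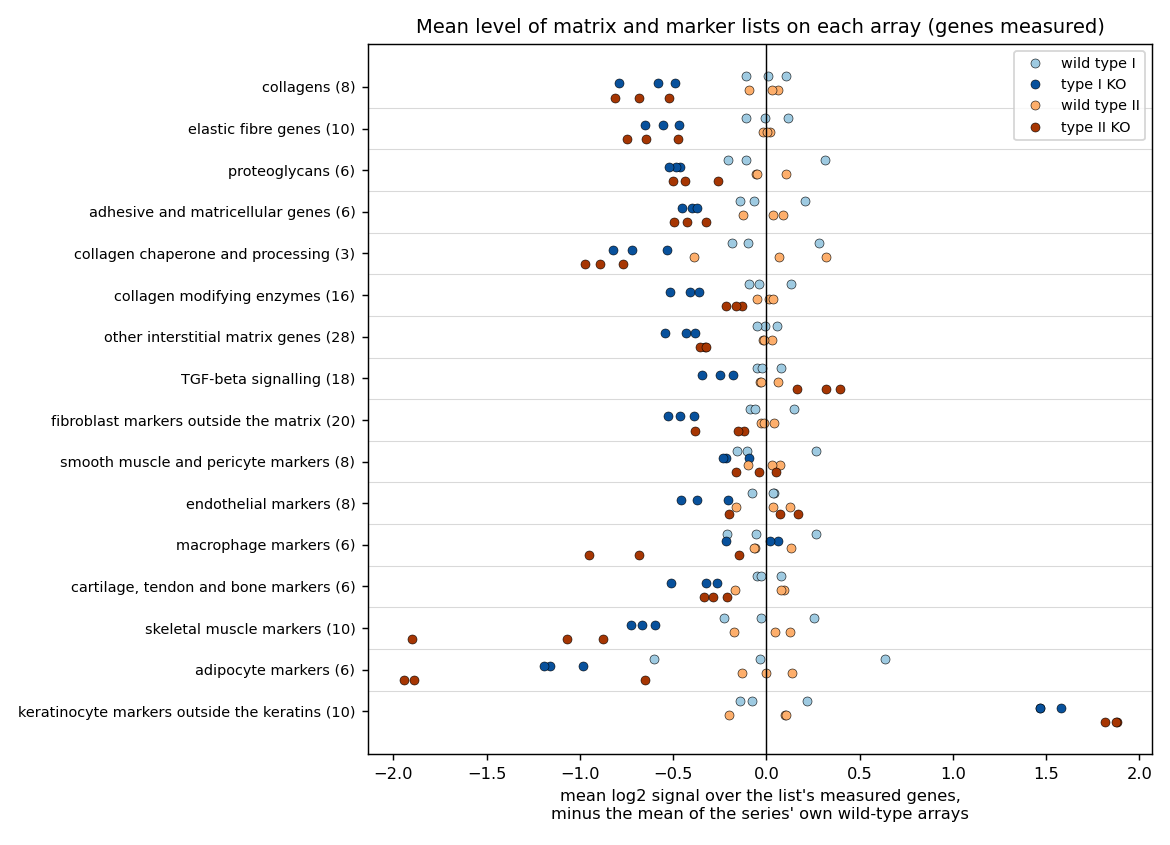
Mean log2 signal of each gene list on each array (x axis, minus the mean of that series' 3 wild-type arrays), with 1 dot per array and the number of measured genes in brackets. Matrix and fibroblast lists lie left of 0 in the knockouts and keratinocyte markers lie right of 0, between 1.47 and 1.88.

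Read against the fibroblast markers, the members lay near them in the type I knockout and below them in the type II knockout. The members' own mean shift was alike in both, from -0.64 to -0.47 and from -0.65 to -0.49. The markers' shift ran from -0.53 to -0.39 and from -0.38 to -0.12. The markers include Pdpn, which keratinocytes can also express and which rose by 1.43 in the type II knockout. How far Pdpn moved the markers' mean was not tested. With the mean shift of the 20 markers taken off, the members' mean on the type I knockout arrays was between -0.145 and -0.0046 against their wild type, and on the type II knockout arrays between -0.447 and -0.267. When each array was centred on the 20 markers, every gene moved up alike, by 0.46 in the type I and by 0.22 in the type II comparison, so that the members' median stayed 0.43 and 0.59 below that of all genes by construction. Falls over all genes then dropped from 15.6% to 1.31% and from 21.8% to 10.6%, and rises went to 33.4% and 21.3%. Of the 33 members 1 was then lower in the type I knockout (Loxl1, -0.51, adjusted p = 0.00863) and 16 in the type II knockout. This shift is common to all genes, so these counts say nothing particular about the matrix genes.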

How the data were processed

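Total RNA of embryonic back skin was extracted with Trizol, cleaned with DNase I treatment and labelled as biotinylated cRNA for Illumina arrays, per the labels' protocols. The deposited table holds each probe's average bead signal as an intensity that is not normalized, together with a detection p-value for each probe and array, per the file headers. A second table deposited by the authors holds intensity values that are background-subtracted, quantile normalized and linear, as its values show, and served only as an alternative. The scanner software is not given in the sources used here.

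In R 4.3.3 with limma 3.58.1, signals were corrected by normexp, for which the detection p-values served to infer the negative controls (offset 16), then quantile normalized and turned to log2 values. Probes with a detection p under 0.05 on at least 3 of 12 arrays entered (14744 of 25697), and the brightest stood for its gene. Gene names came from the platform's annotation table, in which 23978 probes had 1 symbol, 0 had several and 1719 had none. A single linear model over the 12 arrays, with 4 group terms and 8 residual degrees of freedom (lmFit, eBayes), gave every test, with Benjamini-Hochberg adjustment over all 11163 genes. The median standard error was 0.17, and precision is limited by the number of arrays. The fit was tested on simulated data.

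The members, the other lists and the tests were chosen with earlier results of these data known, so no direction given for them is independent evidence. Per-array values are given for up to 3 members with the largest called change in each role and comparison, and for rises; of the other lists, genes with the smallest adjusted p and Pdgfra, Twist2 and Dpp4 were named, and the per-array values of Vcan and Eln were added after they were seen. Replicate numbers, and the numbers that open the titles, are shared by knockout and wild-type arrays, and were used as blocks in alternatives only. Alternatives varied the background correction, scaling, starting table, offset, filter, choice of probe, arrays in the fit, array weights, blocks, fibroblast-marker centring and each array left out. A second centring, on 5 markers, was chosen after seeing the data.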

Additional observations from a re-analysis of the deposited data

Results flagged for a closer look

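By the test of the type II change minus the type I change (limma, adjusted over all genes), 3.06% of all genes differed between the knockouts. No matrix gene of the 33 did, and 4 genes of the other lists did. They were 1 of 28 other interstitial matrix genes, 1 of 20 fibroblast markers and 2 of 10 keratinocyte markers. With that share over all genes, 4 calls over all the other lists are not a result about those lists. Prelp, a leucine-rich proteoglycan, differed by 0.94 ± 0.19 on the log2 scale (adjusted p = 0.0207), with -0.27 in the type I knockout and 0.67 in the type II knockout. Pdpn, podoplanin, listed as a fibroblast marker, differed by 1.25 ± 0.25 (0.0193), with 0.18 and 1.43. Of the keratinocyte markers, Dsg3, a desmosomal cadherin, differed by 1.56 ± 0.37 (0.0443) and Itgb4, a hemidesmosomal integrin chain, by 1.29 ± 0.24 (0.0153), both higher in the type II knockout. What lies behind these differences was not tested.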

How the results depend on the processing

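Centring on fibroblast markers moved the results most, and moved all genes alike, by 0.46 (type I) and 0.22 (type II) with the 20 markers and by 0.56 and 0.26 with the 5, so that each called fall smaller than the shift changes sign by construction and says nothing about the member. With the 20 markers, the type I knockout had 1 member lower and 1 higher and a median of -0.0837, the type II knockout had 2 higher and a median of -0.44, the difference had a median of -0.36, and the wild types had 6 higher and a median of 0.28. Emilin1 (0.12), Lox (0.0694) and Dcn (0.035) then had a positive sign in the type I knockout. With the 5 markers, chosen after seeing the data, the type I knockout had 1 lower, 1 higher and a median of 0.0124, the type II knockout 13 lower, 2 higher and a median of -0.41, and the difference 1 lower and a median of -0.42. In the type I knockout Col1a1 (0.0678), Col5a1 (0.0686), Col6a1 (0.0247), Eln (0.0765), Emilin1 (0.22), Lox (0.17), Dcn (0.13), Dpt (0.0148), Sparc (0.00839) and Thbs2 (0.0124) then had a positive sign. Median scaling left 13 falls in the type I knockout. The count of type II rises was 2 with the mean over probes and with the dimmest probe, where Sparc turned to 0.11. The count of type I rises was 1 with the dimmest probe, with separate fits of the 2 series and with array weights. Array weights also called 2 members lower in the difference, and 2 higher and 1 lower between the wild types. With 1 array left out, the falls ranged from 10 to 23 in the type I and from 16 to 22 in the type II knockout, the rises from 0 to 1 and from 1 to 2, the difference from 0 to 1 lower and from 0 to 1 higher, and the wild types from 0 to 1 higher. Arrays with the same replicate number correlated at 0.0281 to 0.359 in their deviations over all genes, above 0.1 in 3 of 6 pairs, so the numbers were not taken as pairs. The number that opens the titles fitted the deviations better: 5 of 8 pairs that share it were above 0.1, against 0 of 10 that do not (highest 0.0738). Over the members of the type I series pairs ran from 0.302 to 0.845 where it was shared and from -0.686 to -0.546 where it was not. In the type II series they ran from 0.242 to 0.300 and from -0.266 to -0.0400. The deviations of a group's 3 arrays sum to 0, so the pairs of a series are not independent and their counts overstate the evidence. The values are no more than a hint from the data that the title number pairs arrays, and the labels do not give its meaning. With the replicate block 20 and 21 members fell, and Eln, Emilin1 and Thbs2 lost their type I call and Emilin1 its type II call, while Col5a2 passed in both and Serpinh1 in the type I knockout. With the title number as a block 23 and 22 members fell, adding Vcan (adjusted p = 0.0424) and Serpinh1 (0.014) in the type I and Tnxb (0.0329) in the type II knockout, with 0 calls lost. Of the 26 alternatives, with the centrings set aside, 4 of 21 type I calls passed throughout (Mfap4, Loxl1, Bgn and Serpinf1) and 13 of 22 type II calls. The cause of these changes was not tested. The dimmest members, Vcan, Postn and Fmod, lie near the detection limit, and 3 arrays a group limit all results.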
